A study of Mus musculus with 2 samples.

Results

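Wide distal hotspots are stretches of open chromatin at least 1000 bp long that lie away from the start of any protein-coding gene. They were taken from DNase-seq of the thymus of newborn mice. A member was a replicate 1 hotspot of 1000 bp or more on an autosome that overlapped a replicate 2 hotspot of 1000 bp or more, with no protein-coding transcription start site (TSS) inside it or within 1000 bp of either end. Of 135932 hotspots in replicate 1, 1584 were members, and replicate 2 had 121064 hotspots in all. The study held 1 group, strain B6NCrl at postnatal day 0 with males and females pooled, in 2 biological replicates labelled with 1 donor and different biosamples. No treatment or genotype differed, so members were set beside 68663 distal hotspots narrower than 1000 bp in both replicates, and beside 5462 wide hotspots at coding promoters. The sources used here do not give the read depth. With 2 values against 2 an exact two-sided permutation test cannot go below 0.333. Wide and narrower values are also paired by replicate, and with 2 pairs that limit is no lower. Differences were therefore set against the spread between replicates (SD, n = 2), which may be partly technical, and no p-value was computed.

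The thymus is the organ where T cells mature, and most of its cells are thymocytes that rearrange and test their antigen receptors. DNase I cuts DNA where nucleosomes are displaced by regulatory proteins, so its cuts mark promoters and enhancers. A single enhancer usually opens about the length of DNA that a nucleosome would cover. A hotspot several times wider can hold neighbouring open sites, and runs of such sites near the factors that set a cell's identity have been described in many tissues. In these files all 20 T lineage transcription factors on a list of marker genes and all 23 listed T cell receptor and signalling genes had a hotspot over a coding TSS in both replicates. The same held for 56.8% of all autosomal coding genes and 13 of 13 housekeeping genes. It held for 8 of 15 myeloid and dendritic, 6 of 15 thymic epithelial, 5 of 12 B cell and 5 of 11 effector and regulatory T cell genes. Other lists had 4 of 12 endothelial, 4 of 11 neuronal, 3 of 9 natural killer, 3 of 11 erythroid, 2 of 12 mesenchyme and 0 of 12 hepatocyte genes.

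Inside the members, the deposited peaks mark segments of 150 bp. The sequences below are the replicate 1 peak with the highest score in the widest member of 7 genes, chosen because the clusters and genes described later turn on them. They are the plus strand of RefSeq GRCm38.p6, the mm10 sequence. Capitals mark matches, on either strand, to the short consensus letters of several protein families. For RUNX factors, which act throughout T cell development, they are TGCGGT or TGTGGT. For ETS factors, which include Ets1 and Fli1, they are CAGGAA or CCGGAA. E proteins and their relatives bind E-boxes, here CAGCTG or CACCTG. TCF7 and LEF1 have CTTTGAA or CTTTGAT in common. GATA factors have GATAA or GATAG after an A or a T, and AP-1, the dimer of Fos and Jun proteins, has TGACTCA or TGAGTCA. The letters searched for CTCF are longer and are given by that name alone. A match is a description of letters and not a measured binding site.
Trb locus, chr6:41541856-41542005: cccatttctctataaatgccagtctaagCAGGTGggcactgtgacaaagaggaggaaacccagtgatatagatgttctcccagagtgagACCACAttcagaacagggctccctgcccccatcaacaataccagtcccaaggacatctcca
Tcf7 intron, chr11:52262096-52262245: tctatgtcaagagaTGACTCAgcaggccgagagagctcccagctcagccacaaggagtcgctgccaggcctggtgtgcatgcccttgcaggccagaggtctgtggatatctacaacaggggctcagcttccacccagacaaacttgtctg
Upstream of Mir142, chr11:87749576-87749725: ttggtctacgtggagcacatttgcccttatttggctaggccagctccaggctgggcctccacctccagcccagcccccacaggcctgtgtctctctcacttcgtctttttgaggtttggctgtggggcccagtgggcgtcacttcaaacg
Ccnd3, chr17:47542196-47542345: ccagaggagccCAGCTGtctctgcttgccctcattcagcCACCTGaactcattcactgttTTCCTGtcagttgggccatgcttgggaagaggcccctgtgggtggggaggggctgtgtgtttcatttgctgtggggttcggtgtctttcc
Near Zfp36l2, chr17:84180776-84180925: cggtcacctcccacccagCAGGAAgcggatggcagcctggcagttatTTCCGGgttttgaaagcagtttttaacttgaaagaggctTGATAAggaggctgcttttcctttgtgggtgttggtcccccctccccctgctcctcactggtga
Near Ddit4, chr10:59963716-59963865: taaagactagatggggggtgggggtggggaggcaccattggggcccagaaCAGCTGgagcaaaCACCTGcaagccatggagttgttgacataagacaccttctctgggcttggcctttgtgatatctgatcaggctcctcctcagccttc
Near Ptma, chr1:86487496-86487645: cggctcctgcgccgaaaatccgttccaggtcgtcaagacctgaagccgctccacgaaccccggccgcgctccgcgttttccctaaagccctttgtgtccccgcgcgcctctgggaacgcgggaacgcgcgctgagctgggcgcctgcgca

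The Trb peak held 1 E-box and 1 RUNX match, and the Tcf7 peak held 1 AP-1 match. Peaks near Ccnd3, Zfp36l2 and Ddit4 held 3, 3 and 2 matches, with ETS matches near Ccnd3 and Zfp36l2 and both E-box types near Ccnd3 and Ddit4. The peaks upstream of Mir142 and near Ptma held 0 matches to these letters, which says nothing of which proteins bind there.

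Most members were only moderately wider than the limit. They were chosen by width in both replicates and by distance from coding start sites. Width, the number and scores of peaks in that width and the −log10 q of the same regions are therefore given as descriptions. In replicate 1 their median width was 1237 bp, with 353 members (22.3%) at 1500 bp or more, 76 (4.80%) at 2000 bp or more and a widest member of 5315 bp. The partners in replicate 2 had a median of 1395 bp, 638 (40.3%) at 1500 bp or more, and a widest of 5395 bp. The narrowest members were 3 of 1000 bp, nearest to Hif1a, Lyst and Ttc7, and the hotspots just under the limit were 3 of 999 bp, nearest to Rdh10, Cdkn1a and Lrmp. In all, 368 distal hotspots of 900 to 999 bp in replicate 1, these included, had a wide partner and were left out by the limit alone.

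Replicate 2 drew wider regions than replicate 1. Among all autosomal hotspots, 7538 of 132530 (5.69%) were wide in replicate 1 and 11114 of 118125 (9.41%) in replicate 2. Distal hotspots made up 24.9% and 29.6% of the wide ones, against 83.4% and 85.8% of the narrower ones. Of 1880 wide distal hotspots in replicate 1, 1584 (84.3%) had a wide partner, and of 3286 in replicate 2, 1547 (47.1%) did. Almost all had a partner of some width, 99.7% in each replicate, with 5 and 9 exceptions. Members were wider in replicate 2 in 1176 cases (74.2%), with a median ratio of 1.08. Spearman's rho between the widths was 0.582 across the 1584 members, a description since the points share libraries and the same limit in both.

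**Figure D1:**
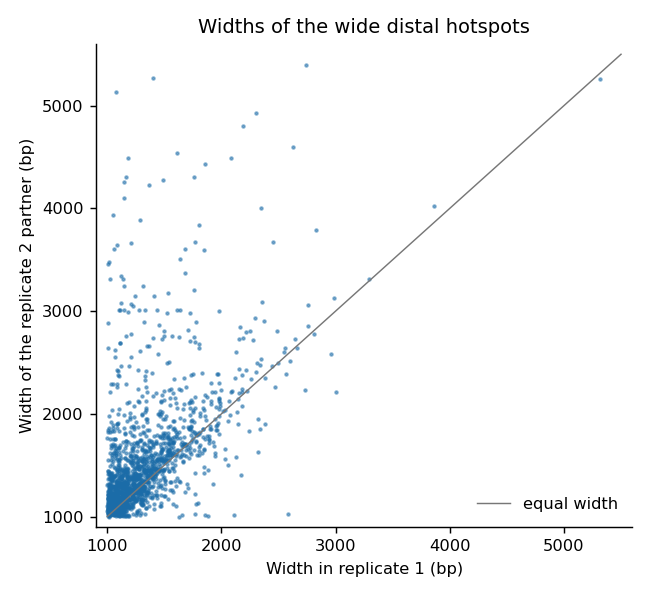
Width of each of the 1584 wide distal hotspots in replicate 1 (x axis, bp) against its partner in replicate 2 (y axis, bp), with a line of equal width. Most points lie above the line, with 74.2% wider in replicate 2, and the point farthest to the right is the member in the T cell receptor beta locus.

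Most members held several open sites. With the peaks of replicate 1, 3901 peaks had their midpoint in a member, a mean of 2.46 per member. The peaks of replicate 2 gave 3366, a mean of 2.13. A single peak was found in 158 members (9.97%) in replicate 1 and 348 (22.0%) in replicate 2, 3 or more in 662 (41.8%) and 433 (27.3%), and none lacked a peak in either list. Narrower distal hotspots held 1.02 and 0.967 peaks on average. Per kb members held 1.84 and 1.59 peaks and narrower hotspots 3.32 and 3.14. Both the count and the density follow from the width that chose the members, since 94.0% of narrower hotspots held exactly 1 peak in replicate 1. Wide promoter hotspots held 2.63 and 2.09 peaks, or 1.76 and 1.40 per kb. The median spacing between neighbouring peaks of a member was 440 bp in replicate 1 and 480 bp in replicate 2.

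Peak number followed width. In replicate 1 the mean rose from 2.04 in members of 1000 to 1249 bp to 2.53, 3.06 and 4.42 in the wider classes, while the density stayed between 1.81 and 1.87 peaks per kb. The replicate 2 means were 1.81, 2.13, 2.61 and 3.71. Both replicates gave the same number in 904 members (57.1%), replicate 1 gave more in 555 and replicate 2 in 125. A single peak in both was seen in 134 members.

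**Figure D2:**
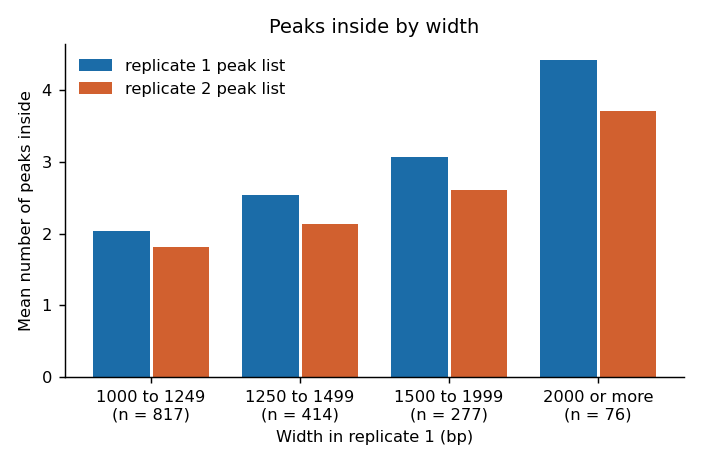
Mean number of peaks inside a wide distal hotspot (y axis) by its width in replicate 1 (x axis, bp, with the number of members), for the peak list of each replicate. Means rise with width, from 2.04 to 4.42 in replicate 1 and from 1.81 to 3.71 in replicate 2.

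The peaks inside members had higher scores than the lists as a whole, a description since scores and the widths that chose the members come from the same reads. The score runs from 1 to 150 and the sources used here do not say what it counts. The median score of peaks inside members was 85 in replicate 1 and 90 in replicate 2, against 46 and 41 over all peaks. The highest peak of each member had a median of 108 and 109. The highest peak of a narrower distal hotspot had a median of 54 and 45, and that of a wide promoter hotspot 123 and 130. The highest was taken over a mean of 2.46 and 2.13 peaks in members but 1.02 and 0.967 in narrower hotspots. The highest scores of members had a Spearman's rho of 0.894 between replicates. The authors' −log10 q of the hotspot was at its cap of 100 in 1580 members (99.7%) in each replicate, against 58.6% and 52.4% of narrower ones. The 8 members below the cap in 1 replicate were nearest to Trpm8 (2 members), Skp1a, Phospho1, Ndufs3, Lor, Wee1 and Tln2.

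The 10 widest members lay near genes of different kinds. The widest, chr6:41541334-41546648, covered Trbd2 and Trbj2-1 to Trbj2-7 of the T cell receptor beta locus, with 10 peaks in replicate 1 and 9 in replicate 2. The start sites of those segments lie in it but do not count as coding under the rule. Next came a member of 3858 bp within Kdm6b, which encodes a histone H3 lysine 27 demethylase, at chr11:69408477-69412334, with 7 and 6 peaks. A member of 3296 bp stood 193 kb upstream of Map3k1, a kinase of the JNK pathway, also with 7 and 6 peaks. Another, chr2:9593495-9596499 (3005 bp), lay 283.6 kb downstream of the TSS of Gata3, a zinc finger factor needed at several steps of T cell development. A member of 2985 bp was nearest to the TSS of Ntn1, 187 kb away, but lay in an intron of Stx8. Others of the 10 widest were in introns of Zfpm1 (2956 bp), a GATA cofactor gene, of Psma6 (2810 bp), a proteasome subunit gene, and of Nr6a1 (2754 bp). The remaining pair lay 5.48 kb upstream of Sox4 (2831 bp) and upstream of Mir142 (2756 bp).

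Members were more often intergenic than narrower distal hotspots. By midpoint, 858 (54.2%) were outside any coding gene, 624 (39.4%) in an intron and 102 (6.44%) in an exon, against 46.6%, 47.5% and 5.88% of narrower ones. From each replicate's own list, 52.1% ± 0.659 of wide distal and 46.7% ± 0.364 of narrower distal hotspots were intergenic (SD, n = 2). That difference is larger than the spread between replicates. The intron shares were 40.9% ± 0.153 and 47.4% ± 0.675 (SD, n = 2). A wide hotspot has to keep both its ends clear of a TSS, which bears on how close its midpoint can come. Within 5 kb of a coding TSS were 14.3% ± 0.201 of wide and 17.9% ± 0.276 of narrower hotspots (SD, n = 2). The median distance of members to the nearest coding TSS was 22.8 kb, against 20.9 kb.

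Members also lay near start sites that are not those of coding transcripts. In 366 members (23.1%) such a TSS was inside or within 1000 bp, and in 9.13% of narrower hotspots. Counted from the midpoint, which does not depend on width, the shares were 19.0% and 8.19%. From each replicate's own list they were 17.3% ± 0.926 and 8.18% ± 0.0662 (SD, n = 2), a difference larger than the replicate spread. Long non-coding RNAs gave most of it, 11.5% of members and 3.13% of narrower hotspots by midpoint. Non-coding transcripts of coding genes gave 6.12% and 3.23%. A microRNA start was within 1000 bp of the midpoint in 10 members (0.631%) against 0.277%.

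Few genes had a member nearby. Each member was assigned to the coding gene with the nearest TSS within 100 kb, which does not show that it regulates that gene. This took 1380 members to 1179 of 20807 autosomal coding genes (5.67%), where narrower distal hotspots reached 13471 (64.7%). A single member was found at 1012 genes, 2 at 143, 3 at 19, 4 at 3, 6 at Tcf7 and 7 at Prss2. The trypsin gene Prss2 sits within the T cell receptor beta locus, and all 7 of its members lay on receptor segments or their flank.

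Tcf7, which encodes the factor TCF1 that Notch signals switch on in early thymocytes, had 6 members of 1144 to 2319 bp, 5 of them in its introns and 1 located 31.2 kb upstream. The genes with 4 members were Tspoap1, beside Mir142, the chromatin remodeller gene Chd2, and Klrb1b, a lectin receptor gene of natural killer cells. The 19 genes with 3 members included the RNA-binding genes Zfp36l2 and Zfp36, the cyclin gene Ccnd3, the growth inhibitor gene Btg2, Ddit4 (an inhibitor of mTORC1), Ptma (prothymosin alpha), Il6st (the shared receptor chain gp130) and Smad7 (an inhibitor of TGF-beta signals). Also with 3 were Kdm6b, Kremen1, Asb1, Ppm1h, Pitpnm2, Prex1, Prr3, Cmah, Scml4, Lyst and Lef1. Of the genes with 2, Kcnrg had the largest summed width, 5301 bp.

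The members of these genes differed in position and in how many narrower hotspots surrounded them. At Ccnd3 all 3 lay in introns, 6.07 to 37.5 kb from the nearest TSS, with 9 peaks in replicate 1 and 5 in replicate 2. At Ddit4 all 3 were intergenic, 12.5 to 22.8 kb away, with 9 and 7 peaks. At Zfp36 the 3 stood 2.87 to 4.20 kb away, where only 1 narrower distal hotspot was assigned to the gene. At Prex1, which encodes a Rac exchange factor, 3 members stood among 43 narrower hotspots. Kdm6b had 3 members and 2 narrower ones. Members thus outnumbered narrower hotspots at Zfp36 and Kdm6b and were outnumbered at Prex1. At Chd2 only 2 of the 4 members overlapped their partner by 50% of each, and at Tcf7 4 of the 6 did.

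Members lay closer to each other than narrower hotspots lay to them. Another member was within 12.5 kb of 199 members (12.6%), and a member was that near to 6.99% of narrower hotspots. From the replicates' own lists the ratio of those shares was 1.81 in replicate 1 and 1.68 in replicate 2, 1.74 ± 0.0853 (SD, n = 2). A wide promoter hotspot was that near to 16.0% of members and 12.6% of narrower ones. The median gap between neighbouring members was 152 kb. Joined at 12.5 kb, the 199 formed 88 clusters of 2 or more, of which 13 held 3 or more members. Members that nearly touched were counted separately, such as chr11:87753816-87756108 and chr11:87756110-87757898 at Mir142. How many neighbours were of that kind was not counted.

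The cluster with the largest summed width was in the T cell receptor beta (Trb) locus, where thymocytes join variable, diversity and joining segments. Its 7 members spanned chr6:41532132-41559134 and covered 58.4% of 27.0 kb. In order along the chromosome they overlapped Trbd1, then Trbj1-4 to Trbj1-7, then Trbc1, then Trbd2 with all of Trbj2-1 to Trbj2-7, then Trbc2, then no segment, and last Trbv31. The 2 members over the constant segments Trbc1 and Trbc2 had highest peak scores of 48 and 45 in replicate 1 and 44 and 54 in replicate 2. The member with no segment had 136 and 138, the one over Trbv31 126 and 123, and the one over Trbd2 116 and 109. The locus held 1.05 members per 100 kb against 0.0643 over the autosomes. The rule did not count start sites of receptor segments as coding, so it did not remove hotspots at them as it did at coding promoters. Of the 7 members, 5 had a start site other than a coding one inside or within 1000 bp. With start sites of all biotypes avoided, Prss2 had 2 members. The alpha and delta locus on chromosome 14 held 0 members and 210 narrower hotspots, and the gamma locus and the 3 immunoglobulin loci also held 0.

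The second cluster, chr11:52250467-52280736, ran over Tcf7 from its 3′ end towards its 5′ end. Its 7 members, 2 of them nearer to the TSS of Skp1a, covered 35.6% of 30.3 kb and had highest peak scores in replicate 1 from 34 to 130. The highest, at chr11:52274711-52276789, was 6.82 kb from the nearest Tcf7 TSS, with scores of 130 in replicate 1 and 126 in replicate 2. The member 2.41 kb from a TSS was 1144 bp in replicate 1 and 4257 bp in replicate 2, so the replicates drew that region differently. That member ran from 29.13 to 30.27 kb along the cluster and its partner from 30.07 to 34.33 kb. They shared only the end of the member nearer the TSS, and the partner reached over that TSS. The Mir142 cluster covered 82.3% of 9.77 kb at chr11:87748130-87757898. Its 4 members were 1202 to 2756 bp wide, their highest scores were 100 to 141 in replicate 1 and 107 to 139 in replicate 2, and the last of them held Mir142. The cluster beside Klrb1b had 4 members over 67.2% of 7.61 kb, with highest scores of 92 to 111 and 81 to 128.

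**Figure D3:**
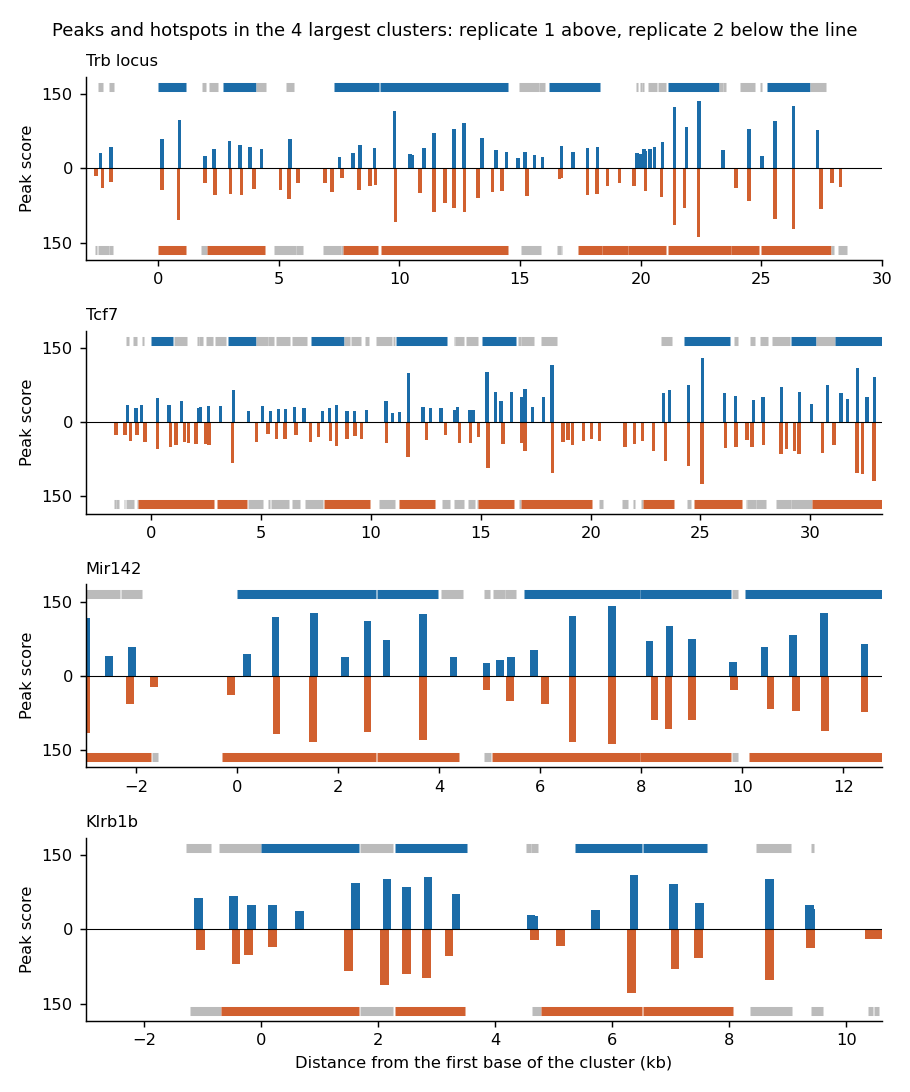
Peak score (y axis) along the 4 clusters with 4 or more members (x axis, kb from the first base of the cluster), with replicate 1 above the line and replicate 2 below. The bars at the outer edges are hotspots, coloured where 1000 bp or wider (promoters included) and grey where narrower, and the strongest peaks of each cluster stand at matching positions in both replicates.

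Members lay more than 100 kb from a coding TSS in 204 cases (12.9%), the same share as narrower distal hotspots (12.9%). Their median distance was 166 kb and the largest 735 kb, and 55 of them still lay inside a coding gene. Lef1, the relative of Tcf7, was nearest to 6 of these, and with the 3 inside 100 kb it had 9, more than any other gene. The 6 stood 131 to 174 kb upstream in 2 clusters of 3. Their widths were 1028 to 1530 bp in replicate 1, with highest scores of 77 to 127 in replicate 1 and 88 to 126 in replicate 2. The cluster farther from Lef1 covered 12.3 kb and the nearer one 4.16 kb. In the nearer one, 2 members that nearly touched shared 1 replicate 2 hotspot of 2294 bp. Those within 100 kb were 96.3 and 90.8 kb upstream and 5.14 kb downstream, in an intron. Other genes with 3 or more beyond 100 kb were Ptprc (4), which encodes the phosphatase CD45, Kcnh8 (4), Tgfbr2 (3), a TGF-beta receptor gene, Olig3 (3), Gm11361 (3) and 3110018I06Rik (3). The stretch between Vrk1 and Bcl11b, looked up after these values were seen, held 5 members, 879 to 1692 kb from the TSS of Bcl11b, and 164 narrower hotspots. These 5 are the 3 already given for 3110018I06Rik, which lies in that stretch, and 2 nearest to Vrk1. Bcl11b, a factor of T cell commitment, was itself nearest to 0 members and 14 narrower hotspots.

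Members reached a larger share of T cell genes than of all genes. Of 20 T lineage transcription factor genes, 13 had a member within 100 kb (65.0%), against 5.67% of autosomal coding genes, and together they held 25. With members of 1500 bp or more 3 of the 20 had one, where 258 of 20807 autosomal coding genes did. Beside Tcf7 with 6 and Lef1 with 3, Ets1, Fli1, Ikzf1, Runx3 and Sox4 had 2, and Foxp1, Gata3, Myb, Runx1, Tcf12 and Tox had 1. At Sox4 the wider member was 2831 bp with 5 peaks in each replicate and highest scores of 136 and 138. At Fli1 it was 2583 bp in replicate 1 and 1020 bp in replicate 2, with 5 and 4 peaks. At Ikzf1 it was 1717 and 1574 bp, 39.4 kb from a TSS in an intron. The list holds genes with many open sites of any width, with a median of 15 narrower hotspots against 1 over all genes. Among genes with 21 or more narrower hotspots 49.0% had a member, and 7 of 7 listed factors in that class did. Among those with 11 to 20 the figures were 31.4% and 5 of 8, and with 6 to 10 they were 15.2% and 1 of 4.

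Of the 23 T cell receptor and signalling genes, 8 had a member (34.8%). With replicate 2 alone it was 15, a setting in which 2146 of 20807 autosomal coding genes had one. It was 5 when start sites of all biotypes had to be avoided, where 923 of all coding genes had one. The genes of this list had a median of 10 narrower hotspots. Those with a member included Cd247, the zeta chain, with 2 members, and the adaptor genes Lat (2059 bp in replicate 1, 29.3 kb away) and Lcp2 (1210 bp). Of 20 genes of thymocyte cytokines, migration and survival, 7 had one (35.0%), among them the survival gene Mcl1 with 2 and the chemokine receptor genes Ccr9 and Cxcr4 with 1. With replicate 2 alone it was 14, and the list's median was 10.5 narrower hotspots. Of 16 early thymocyte, recombination and Notch genes, 4 did, namely Hes1, Il2ra, Lyl1 and Notch3. The widest of these, 1799 bp with 4 peaks in each replicate, was 6.80 kb upstream of Il2ra, the receptor chain CD25. Several defining thymocyte genes, named after their values were seen, had 0 members: Cd4, Cd8a, Cd8b1, Rag1, Rag2, Lck and Ptcra. They held 5, 11, 3, 3, 1, 6 and 1 narrower distal hotspots in that order, and each had a hotspot over a coding TSS in both replicates.

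The lists of other cell types were short, so a share near 5.67% comes to about 1 gene or none in each. No member was nearest to any of 11 effector and regulatory T cell genes, 15 myeloid and dendritic, 12 endothelial, 11 erythroid, 12 mesenchymal or 11 neuronal genes. With replicate 2 alone, 1 effector, 3 myeloid, 2 endothelial and 2 neuronal genes had a wide distal hotspot, so those zeros depend on replicate 1. In that setting 2146 of 20807 autosomal coding genes had one, against 1179 in the main setting. There was 1 gene each among 12 B cell genes (Ebf1), 9 natural killer genes (Eomes) and 15 thymic epithelial genes (Cldn4). Of 13 housekeeping genes 4 had a member (30.8%), among them Actb and Eef1a1, so a share above 5.67% was not limited to T cell lists. The housekeeping genes held a median of 1 narrower hotspot.

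**Figure D4:**
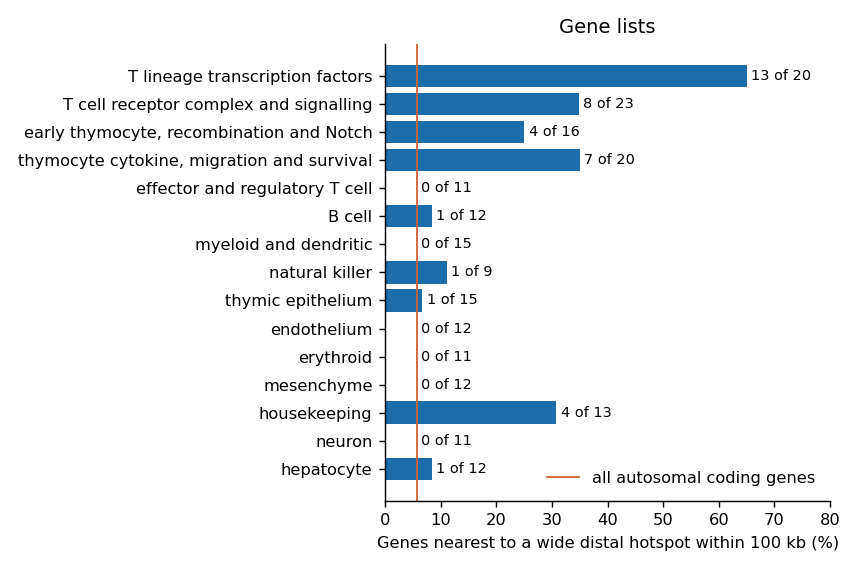
Share of the genes of each list that were nearest, within 100 kb, to at least 1 wide distal hotspot (x axis, percent), with the number of genes beside each bar and a line at the 5.67% of all autosomal coding genes. The T lineage transcription factors stand highest at 65.0%, and 6 lists have no such gene.

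MicroRNA genes, which are not among the coding genes above, lay in or beside members. Of 2054 autosomal microRNA genes 11 were inside a member and 72 were within 10 kb of 57 members (3.51%). Narrower distal hotspots, far more numerous, were that near to 45.8%. For the members, 52 of the 72 matched a RefSeq entry. The mature sequences below are those of the microRNAs that recur in the clusters and groups described here, from RefSeq GRCm38.p6, with the seed (bases 2 to 8), the part that pairs with target RNAs, in capitals. They show which of them share a seed and so can pair with the same target letters.
miR-142a-5p: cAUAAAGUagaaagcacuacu
miR-142a-3p: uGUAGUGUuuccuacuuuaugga
let-7i-5p: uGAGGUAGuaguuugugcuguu
let-7a-5p: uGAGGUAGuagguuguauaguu
let-7d-5p: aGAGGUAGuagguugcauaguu
let-7f-5p: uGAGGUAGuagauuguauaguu
miR-148a-3p: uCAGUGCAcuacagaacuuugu
miR-17-5p: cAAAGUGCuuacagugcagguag
miR-20a-5p: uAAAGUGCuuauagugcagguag
miR-18a-5p: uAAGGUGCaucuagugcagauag
miR-19a-3p: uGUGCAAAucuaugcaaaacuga
miR-19b-3p: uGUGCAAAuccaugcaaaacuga
miR-92a-3p: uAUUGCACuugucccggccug

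Mir142, which is expressed throughout the blood lineages, lay inside a member of 1789 bp in both replicates, the last of its cluster. Mirlet7i was inside a member of 1636 bp in replicate 1 and 1958 bp in replicate 2, with 4 and 3 peaks. It shares its seed with let-7a, let-7d and let-7f, whose genes lay 7331, 9489 and 7686 bp from 1 member at chr13:48545604-48546994. The cluster of Mir17, Mir18, Mir19a, Mir20a, Mir19b-1 and Mir92-1, known for its role in lymphocyte growth, lay 2338 to 3094 bp from the member chr14:115040015-115041332. In that cluster miR-17 and miR-20a share a seed, as do miR-19a and miR-19b. Mir148a stood 555 bp from a member of 1115 bp with highest scores of 126 and 129. Mir22 stood 1736 bp from one of 2214 bp with scores of 133 and 142.

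In base composition members resembled narrower distal hotspots more than promoters. The ratio of observed to expected CpG had a median of 0.298 in members, 0.219 in narrower distal and 0.747 in wide promoter hotspots. From the replicates' own lists the median was 0.277 ± 0.0151 in wide and 0.212 ± 2.46e-05 in narrower distal hotspots (SD, n = 2), a difference larger than the spread. A ratio of 0.6 or more, typical of CpG islands, was found in 215 members (13.6%), in 4.64% of narrower distal and in 83.3% of wide promoter hotspots. Of these 215, 116 (54.0%) had one of the other start sites inside or within 1000 bp, against 18.3% of the 1369 members under 0.6. Median GC content was 50.2% in members and 48.5% in narrower ones. Repeats made up a mean of 13.3% of bases against 17.7%, but the medians went the other way, 11.8% against 10.8%. No member had over 50% of its 31-base words recurring elsewhere in the genome.

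The peaks in members held the CTCF consensus less often than peaks in narrower distal hotspots. CTCF binds insulators and the anchors of chromatin loops. Its consensus was found in 2.36% of 3901 member peaks and 8.89% of 70216 peaks of narrower hotspots in replicate 1, and in 2.38% of 3366 and 9.25% of 66367 in replicate 2. Among all autosomal peaks the shares were 5.17% and 5.13%, and in wide promoter hotspots 1.17% and 1.08%. The ratio of members to narrower hotspots was 0.261 ± 0.00600 (SD, n = 2), below 1 by more than the spread. It was 0.255 ± 0.00506 (SD, n = 2) with only hotspots of a CpG ratio under 0.6 on both sides. Both SDs compare 2 peak lists over the same shared hotspots. With each replicate's own hotspots the ratio was 0.333 in replicate 1 and 0.390 in replicate 2, with an SD of 0.0405, and also below 1 by more than that spread.

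E-box letters went the other way. CAGCTG, the palindrome that E proteins such as those of Tcf3 and Tcf12 bind, was found in 19.3% and 21.2% of member peaks, against 15.6% and 15.8% in narrower hotspots. The ratio was 1.29 ± 0.0787 (SD, n = 2). For CACCTG it was 1.12 ± 0.0187 and for the ETS letters 1.10 ± 0.0201 (SD, n = 2). The RUNX letters, in 22.8% and 23.5% of member peaks, gave a ratio of 0.967 ± 0.0149 over all members, and 1.02 ± 0.00952 with only hotspots of a CpG ratio under 0.6 on both sides (SD, n = 2). Counting only the highest-scoring peak of each hotspot gave 1.24 for RUNX, 1.27 for ETS, 1.56 for CAGCTG and 1.36 for CACCTG. When members had to be 1500 bp or wider, the RUNX ratio was 0.853 and the ETS ratio turned to 0.986. In that setting CAGCTG gave 1.21 and CACCTG 1.10. The ratio was 0.991 for TCF7 and LEF1, 0.992 for AP-1 and 1.00 for NFY (CCAAT). With that CpG limit on both sides these became 1.06 ± 0.0120, 1.02 ± 0.00809 and 0.931 ± 0.0119 (SD, n = 2). It was 0.901 ± 0.0425 for GATA, 0.845 ± 0.0294 for Ikaros (TGGGAA) and 0.918 ± 0.0135 for CAGATG (SD, n = 2). With the CpG limit they were 0.964 ± 0.0470, 0.857 ± 0.0401 and 0.971 ± 0.0154 (SD, n = 2), so for GATA the difference from 1 was within the spread. The HNF4 consensus (CAAAG and then, with no gap, the letters TCCA), of a factor of liver and gut, was in 6 and 3 member peaks. Those are 0.154% and 0.0891%, against 0.147% and 0.140% in narrower hotspots. That ratio was 0.842 ± 0.292 (SD, n = 2), within the spread of 1. The SDs of these ratios compare 2 peak lists over the same shared hotspots. With the own hotspots of replicates 1 and 2 the ratios were 1.34 and 1.35 for CAGCTG and 1.21 and 1.22 for CACCTG. They were 1.15 and 1.14 for ETS, and 0.997 and 1.04 for RUNX. Each consensus was searched on both strands, a peak was counted once for each, and letters of different consensus sequences may overlap.

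**Figure D5:**
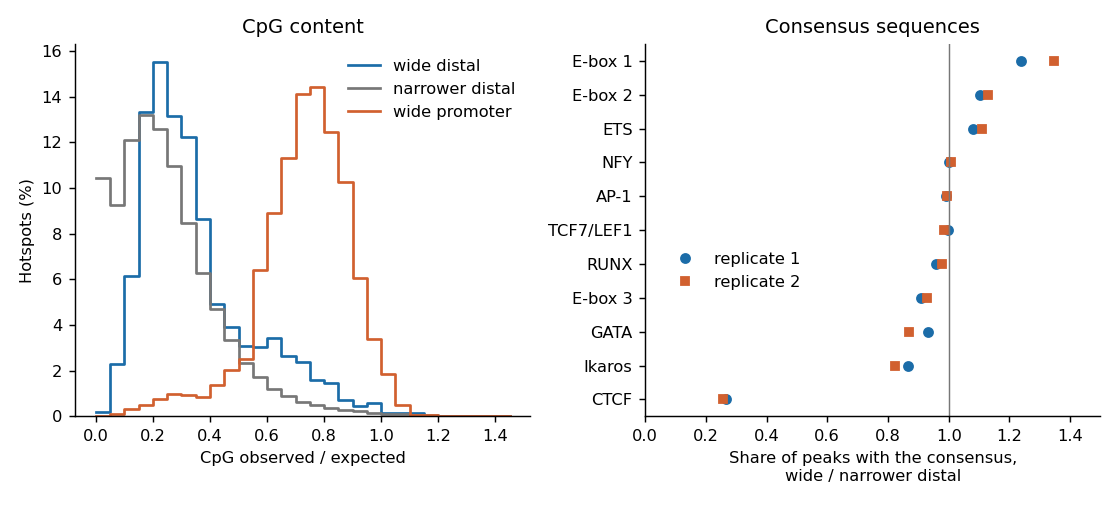
Left, the share of hotspots (y axis, percent) by the ratio of observed to expected CpG (x axis) in wide distal, narrower distal and wide promoter hotspots. Right, the share of peaks with a consensus in wide divided by that in narrower distal hotspots (x axis) for each replicate, with E-box 1 for CAGCTG, E-box 2 for CACCTG and E-box 3 for CAGATG, where CTCF stands at 0.265 and 0.257.

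Members were not spread evenly over chromosomes. Chromosome 11, with Tcf7, Kdm6b and Mir142, held the most, 157, or 1.29 per Mb. The lowest density was 0.463 per Mb, on chromosome 18. As a share of distal hotspots the range was 1.75% on chromosome 12 to 2.81% on chromosome 11.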

How the data were processed

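DNase-seq was deposited for 2 replicates of 1 group, mouse build mm10. Per the text deposited with the files, the authors called peaks and hotspots for each replicate alone. Hotspots carry the authors' −log10 q-value, and peaks of 150 bp a deposited score whose meaning, like the callers, aligner and read totals, is not given in the sources used here. Depth is therefore unknown.

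Overlap was at least 1 bp. Coding transcripts, locations and other start sites came from GENCODE M21, and sequences from RefSeq GRCm38.p6. A peak belongs to a hotspot that holds its midpoint. Genes were assigned by the nearest coding TSS to the midpoint within 100 kb, and members within 12.5 kb were joined into clusters. The 15 gene lists, 12 consensus sequences and members were chosen with earlier results of these data known. Named were the 25 genes with the most members, up to 4 per list, and the nearest genes of the widest, most peak-rich and most clustered members. The other list genes with a member, genes with members beyond 100 kb, microRNAs and members below the cap were named after their values were seen. Means ± SD come from each replicate's own hotspot list, except for the consensus ratios. Those come from the peak list of each replicate over the shared hotspots. Alternatives were other widths, overlaps, start sites, distances, peak choices and each replicate alone. The CTCF ratio was taken as the main value for the consensus sequences after the values were seen. Some genes are not reported here. The steps recovered planted answers on simulated data. The software was Python 3.11.15 with matplotlib 3.10.9, numba 0.67.0, scipy 1.17.1, pandas 2.3.3 and numpy 2.4.6.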

Additional observations from a re-analysis of the deposited data

Results flagged for a closer look

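The rule kept to autosomes, and wide hotspots were also present outside them in both replicates. Chromosome X held 20 away from coding start sites in both, of 23 in replicate 1 and 48 in replicate 2. The mitochondrial sequence held 4 wide hotspots in both, of 4 and 4, and unplaced scaffolds 6, of 14 in replicate 1 and 7 in replicate 2. Coding start sites were used on the main chromosomes alone, so distance from one was not measured on the mitochondrial sequence or scaffolds. These were drawn to attention because they lie in data the comparisons above did not use, and no control sample exists to set them against.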

How the results depend on the processing

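There is a single group, so samples could not be paired across groups. Wide and narrower hotspots of a replicate come from the same library, and the ratios per replicate use that pairing. Of 92 values recomputed for the 9 main results, 64 stayed within 1.5 times for counts or 1 SD between replicates for other values. At a width of 1500 bp or more there were 309 members with a median width of 1755 bp, 3.11 peaks, 66.0% intergenic, 258 genes, 3 T lineage factors, 6.15% near another member and a CpG ratio of 0.323. At 750 bp there were 3781 members, with 979 bp, 1.87 peaks, 51.7% intergenic, 2404 genes, 25.5% near another member and a CpG ratio of 0.279. Leaving out a replicate gave 1880 to 3286 members, 1349 to 2146 genes, 51.7% to 52.6% intergenic, 15.3% to 24.6% near another member, a CTCF ratio of 0.333 to 0.390, a CpG ratio of 0.266 to 0.288 and a RUNX ratio of 0.997 to 1.04. The intergenic share was 56.4% at 2500 bp from a coding TSS. Peaks at or above the median score gave 2.09 per member. With start sites of all biotypes, or with members near one left out, the CpG ratio was 0.280. The CTCF ratio was 0.158 among hotspots at the highest −log10 q and 0.313 for the highest-scoring peak of each hotspot, and it stayed below 1 in every alternative run. The RUNX ratio, 0.967 in the report, was 0.853 at 1500 bp and 1.24 for the highest-scoring peak of each hotspot. It was 1.02 with a CpG ratio under 0.6 in both sets, a setting chosen after seeing the data. The ETS ratio fell to 0.986 at 1500 bp and was 1.27 for the highest-scoring peak. The cause was not tested. With start sites of all biotypes Prss2, Tspoap1, Chd2 and Klrb1b had 2 members each.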
